A study of Homo sapiens with 30 samples.

Results

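The U251 glioblastoma line was compared after a washout of interferon gamma (IFN-γ) with the same line never exposed to it. The comparison used 6 of the 30 RNA sequencing libraries of the series, 3 of a group named D28WO and 3 of a group named Untreated, chosen by their labels and not by any measured value. U251 is an established line grown from a human glioblastoma, a tumor of the adult brain with glial features. D28WO cells received IFN-γ for 14 days and were then kept for 14 days in medium without it, so that they were collected at day 28. Untreated cells received no IFN-γ at any time. The labels place the Untreated collection at day 3 and the study's methods place it at the start, and no untreated day 28 culture was analysed here, so washout and time in culture cannot be told apart. The labels give the dose of IFN-γ as 1 µg/mL in one field and as 1 µL/mL in another, and the study's methods give a lower dose than the former. Replicates were separately maintained cultures of 1 line, which the study did not authenticate again after it was received. The other U251 groups, exposed without a break for 3, 14 or 28 days (D3, D14 and D28, 3 libraries each), entered the same fit and are given as side values.

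IFN-γ is a cytokine of T cells and natural killer cells. It binds the receptor chains IFNGR1 and IFNGR2, whose kinases JAK1 and JAK2 activate a transcription factor of the STAT family. Its dimers bind short promoter elements named GAS and switch on a first wave of genes, among them the factor IRF1, which drives a second wave that includes antigen presentation, chemokine and antiviral genes. SOCS1, an inhibitor of the JAK kinases, closes the loop. In glioma cells the pathway is known for raising MHC molecules and the checkpoint ligand CD274 (PD-L1).

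Values are TPM, a transcript abundance corrected for length and scaled to a total of 1000000 in each library, which keeps no sequencing depth, so that a gene listed at 0 has no known lower limit. Of 61471 genes in the U251 table, 21933 averaged 0.5 TPM or more in the libraries compared and were tested. Between 24450 and 27187 genes were above 0 in the Untreated libraries and between 25633 and 26378 in the D28WO libraries. The correlation of log2(TPM + 1) between libraries was 0.966 to 0.969 within Untreated, 0.966 to 0.967 within D28WO and 0.934 to 0.937 between these groups, so that no library stood apart. All 9 neural and glial marker genes, which stand for the labelled cell type, reached a mean of 1 TPM, with a summed level of 4140 to 4234 TPM in Untreated and 2344 to 2462 TPM in D28WO. None of the 5 T cell markers reached that level, and CD3E, CD2 and CD8A were listed at 0 in all 6 libraries. Among 6 myeloid markers 2 reached it, with a summed level of 3.09 to 4.52 TPM in Untreated and 4.30 to 5.17 TPM in D28WO. TYROBP was listed at 0 throughout, CSF1R was at 2.703 and 2.28 TPM, and CD14 rose from 0.569 ± 0.602 TPM to 2.27 ± 0.202 TPM (SD, n = 3, log2 fold change 1.12, limma, adjusted p = 7.83e-03). For 5 endothelial markers the summed level was 37.4 to 51.7 TPM in Untreated and 12.02 to 16.6 TPM in D28WO, and for 5 epithelial markers 4.86 to 6.49 TPM and 4.84 to 7.87 TPM. Of the endothelial markers CDH5 fell from 27.6 to 2.25 TPM and the other 4 did not pass. In bulk RNA, fewer cells of a type and less RNA per cell cannot be told apart. The part of these marker levels in the results was not tested.

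The order of the groups bears on the interferon genes below. The D28WO libraries were collected 14 days after the cytokine was removed, and many interferon-responsive genes were higher there than at D14, in cells then still under IFN-γ. Against D14, 7 of 7 tested guanylate-binding genes, 11 of 16 MHC class II genes, 6 of 17 MHC class I genes, 6 of 14 complement genes and 12 of 50 antiviral genes passed as higher and none of them as lower, where 1.95% of all tested genes passed as higher and 5.02% as lower. Of 11 tested chemokines 2 were higher and 4 lower, and of 14 tested checkpoint and tryptophan genes 4 were higher and 2 lower. CIITA, the regulator of MHC class II genes, had a mean of 1.88 TPM in Untreated, 130 TPM at D3, 7.48 TPM at D14, 131 TPM at D28 and 102 TPM in D28WO. The groups follow the labels, and whether the D14 and D28WO libraries carry the right labels was not tested, so every D28WO value rests on them.

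**Figure D1:**
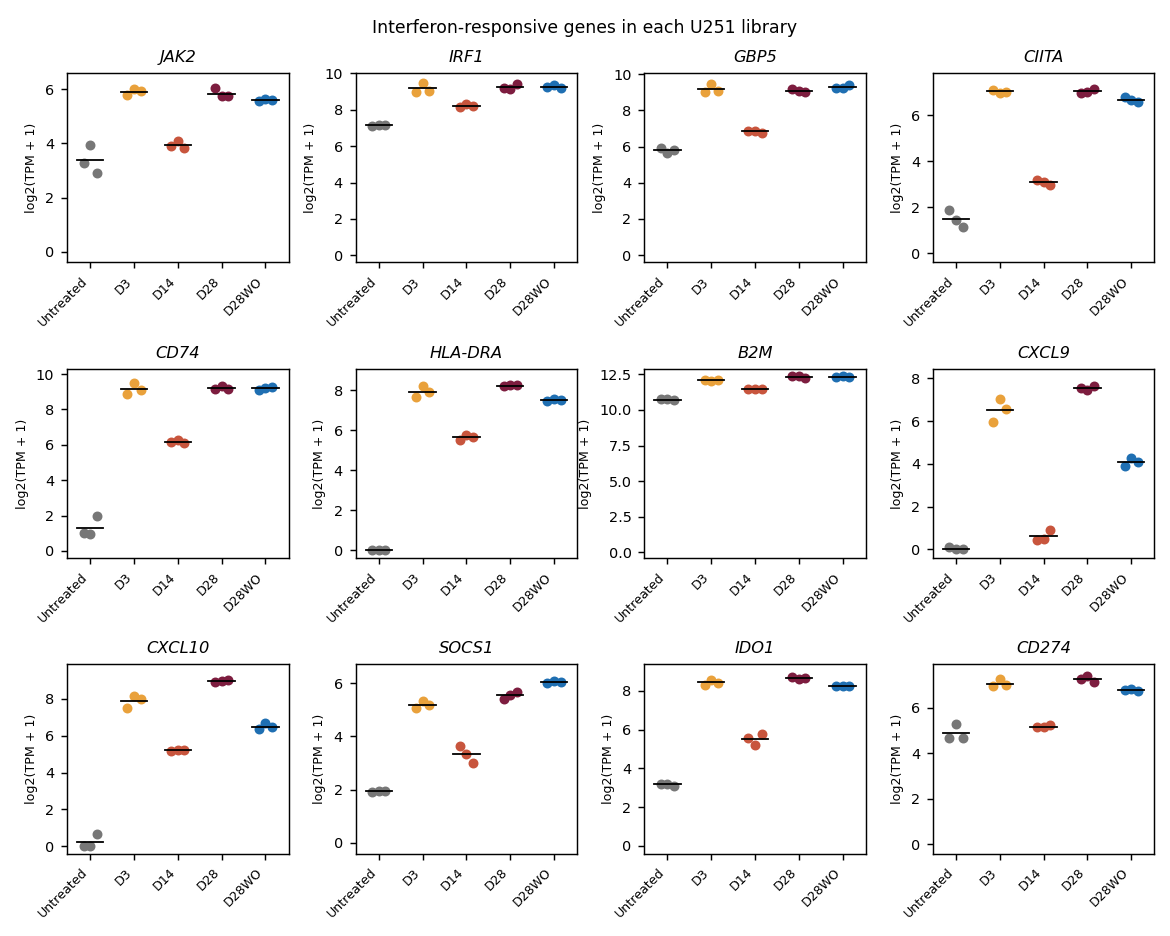
Level of 12 interferon-responsive genes in each of the 15 U251 libraries, as log2(TPM + 1) on the vertical axis, by group on the horizontal axis. Points are libraries and black lines are group means of log2(TPM + 1). The 3 D28WO libraries lie above all Untreated libraries for all 12 genes, near D28 for IRF1, GBP5, CD74 and B2M and below it for CXCL9 and CXCL10.

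After washout, 972 genes were higher than in Untreated cells and 816 were lower, at a Benjamini-Hochberg adjusted p under 0.05 in limma and with a log2 fold change beyond 1 in either direction. The counts are 4.43% and 3.72% of the genes tested, and both shares are the background for the counts of list members below. The 3 D28WO libraries lay above all 3 Untreated libraries for 22.4% of the tested genes and below them for 21.0%. The median log2 fold change of all tested genes was 0.02. Fold changes are differences of mean log2(TPM + 1), D28WO minus Untreated, which understate the change of genes near 0.

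Genes of MHC class II presentation, interferon effectors and chemokines made up nearly all of the 12 largest rises. The list of rises holds CD74, HLA-DRA, HLA-DRB1, HLA-DPB1, HLA-DPA1 and HLA-DOA of class II presentation, the antiviral genes IFI27, CMPK2 and RSAD2, the chemokine CXCL10, the pseudogene GBP1P1 and the galectin-related gene LGALS17A, which the GENCODE annotation lists as a long noncoding RNA. LGALS17A, on GRCh38 chromosome 19 from 39679372 to 39686373, was listed at 0, 0 and 0.178 TPM in the Untreated libraries and at 294, 295 and 313 TPM in the D28WO libraries. The groups were far apart, and the log2 fold change of 8.16 was the highest of the genes ranked. LGALS17A, GBP1P1 and CMPK2 averaged below the filter on mean TPM in Untreated and reached it only through D28WO. Their differences from Untreated are therefore given with no test. GBP1P1 rose from a mean of 0.263 ± 0.278 TPM (SD, n = 3) to 191 ± 6.42 TPM, a log2 fold change of 7.27. As GBP1P1 resembles the coding gene GBP1, part of its reads may come from that gene. CMPK2 and RSAD2, which encode the mitochondrial nucleotide kinase and the antiviral enzyme viperin, overlap head to head on chromosome 2, and reads of the overlap cannot be told apart where strand was not used in counting.

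The 12 largest falls had no common list. They comprised the keratins KRT13 and KRT15, neighbours on chromosome 17, the protease ADAMTS16, the genes ARHGDIB and CFAP95, the tetraspanin TSPAN8, SERPINA5, an inhibitor of serine proteases, XKR4, the transcriptional cofactor CITED1, the reductase CYB5R2 and the pseudogenes RPS26P6 and CDH12P2. KRT13 stood at 52.3, 47.6 and 44.4 TPM in the Untreated libraries and at 0.487, 1.02 and 1.75 TPM in the D28WO libraries. All D28WO libraries were low, and KRT13 fell by 4.60 on the log2 scale (SE 0.32, limma, adjusted p = 9.78e-08). KRT15 stood at 160, 172 and 164 TPM in Untreated and at 9.76, 10.6 and 5.89 TPM in D28WO. KRT15 fell by 4.13 on the log2 scale (SE 0.26, adjusted p = 4.49e-08). RPS26P6 was at 19.0 to 28.1 TPM in Untreated and at or next to 0 in D28WO, so that no fold is given. Leaving out any 1 of 5 libraries (each but Untreated 1) took its adjusted p over 0.05, to between 0.0539 and 0.0616. CDH12P2 was listed at 0, 0 and 10.3 TPM in D28WO and at 40.6 to 53.8 TPM in Untreated. As pseudogenes, both may hold reads of related genes.

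Against cells still under IFN-γ, some of the fallen genes passed as lower and others did not pass. KRT13, ADAMTS16, SERPINA5, XKR4 and CITED1 had D28 means of 0.0443, 1.06, 0.369, 3.53 and 4.19 TPM, and D28WO means of 1.09, 1.69, 0.561, 2.51 and 4.82 TPM, and none of them passed the threshold between these groups. KRT13 missed only the size limit, with a log2 fold change of 0.96 (limma, adjusted p = 0.0369). KRT15, ARHGDIB, CFAP95 and TSPAN8 were at 78.8, 14.8, 10.3 and 11.4 TPM in D28 and at 8.75, 0.369, 1.08 and 1.88 TPM in D28WO. Each of these 4 was lower in D28WO than in D28, with log2 fold changes of -3.07, -3.55, -2.44 and -2.07 (limma, largest adjusted p of the 4 = 1.11e-05). CYB5R2 was at 2.51 TPM in D28 and 1.21 TPM in D28WO and did not pass, and of the pseudogenes CDH12P2 passed as lower (-2.87) and RPS26P6 did not. Across all tested genes, 270 were higher in D28WO than in D28 (1.23%) and 1458 lower (6.65%), and with quantile normalization the counts were 528 and 865. Against D14 the counts were 428 higher (1.95%) and 1100 lower (5.02%). These 3 comparisons share the D28WO libraries, so their values are given side by side and were not compared in a test.

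**Figure D2:**
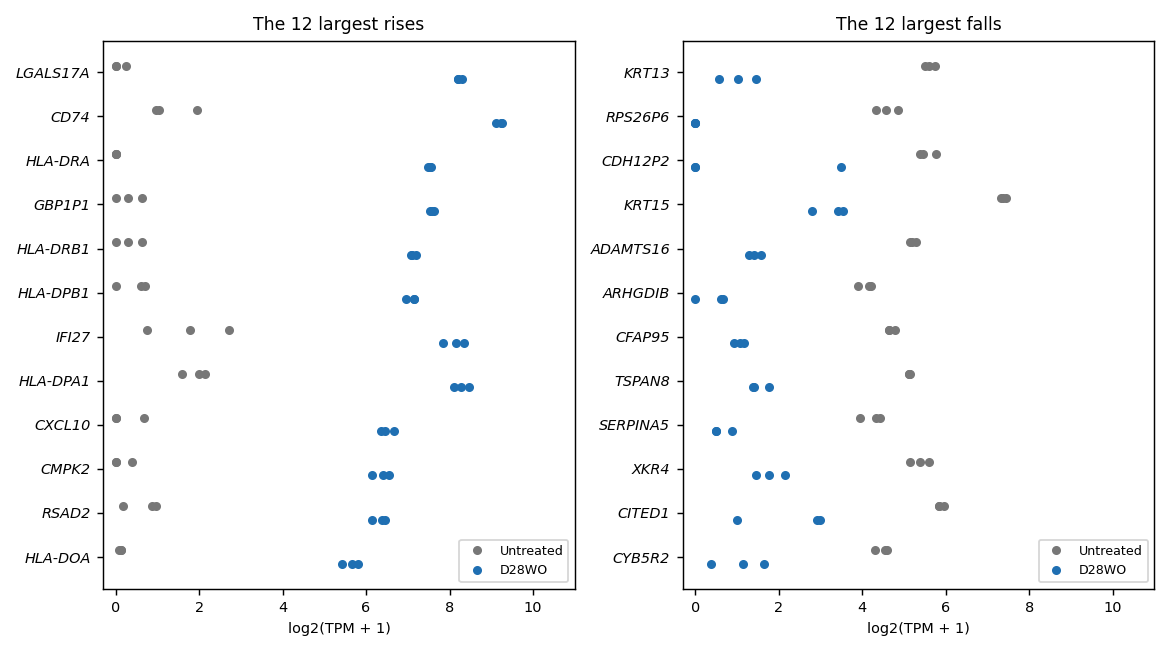
Level of the 12 largest rises (left) and 12 largest falls (right) among called genes, as log2(TPM + 1) on the horizontal axis, with 1 gene in each row. Grey points are the 3 Untreated libraries and blue points the 3 D28WO libraries, and the groups do not overlap for any of the 24 genes, as the choice of these genes required.

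The kinase JAK2 and some transcription factors of the pathway, among them IRF1, were higher after washout than in Untreated cells, and neither receptor chain passed the threshold. Of the 12 tested genes of the IFN receptor and JAK-STAT core, 5 rose and none fell, with a median log2 fold change of 0.17 beside 0.02 for all genes. IRF1 went from 141 ± 3.90 TPM to 620 ± 38.7 TPM (SD, n = 3), a log2 fold change of 2.13 ± 0.11. JAK2 stood at 8.81, 14.4 and 6.53 TPM in Untreated and at 46.8, 48.7 and 48.2 TPM in D28WO, a log2 fold change of 2.23 ± 0.19. STAT2 and IRF9, parts of the ISGF3 complex of type I interferon signaling, rose from 50.9 to 167 TPM and from 34.8 to 117 TPM.

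The other receptor-proximal genes did not pass the threshold. JAK1 stood at 90.0, 89.4 and 98.6 TPM in Untreated and at 85.8, 82.6 and 85.3 TPM in D28WO, a log2 fold change of -0.13 ± 0.07 (limma, adjusted p = 0.188). IFNGR1, the ligand-binding chain, was at 61.9 ± 3.37 TPM and 72.7 ± 6.91 TPM (adjusted p = 0.0557). IFNGR2, the signaling chain, was at 98.1 ± 5.24 TPM and 68.6 ± 4.35 TPM, a log2 fold change of -0.51 (adjusted p = 1.04e-04) that is under the size limit. STAT3, which carries cytokine signals of the IL-6 family, was at 142 ± 4.86 TPM and 136 ± 3.16 TPM.

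Of the other IRF factors, 4 were tested and none passed. IRF2, which competes with IRF1 for its sites, went from 50.0 ± 0.868 TPM to 82.4 ± 1.41 TPM and IRF5 from 30.7 ± 1.83 TPM to 45.4 ± 3.85 TPM, both with non-overlapping groups. IRF7, which amplifies type I interferon, stayed low, at 1.37 ± 0.791 TPM and 2.52 ± 0.457 TPM. Among 10 interferon ligand genes only IFNB1, which encodes interferon beta, was tested. It was listed at 0 in all Untreated libraries and stood at 2.05, 1.66 and 0.927 TPM in D28WO and at a mean of 7.21 ± 1.22 TPM in D28. IFNB1 lay little above the filter, a mean of 0.5 TPM over the libraries compared, and reached it only through D28WO, so its difference from Untreated is given with no test. It was lower than in D28 (limma, adjusted p = 1.34e-04).

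Guanylate-binding proteins, GTPases that attack intracellular pathogens, were higher after washout. All 7 tested genes rose, with a median log2 fold change of 2.92, which is the value of GBP6. GBP6 and GBP7 averaged below the filter on mean TPM in Untreated and reached it only through D28WO. As they entered through the higher group, nothing is drawn from their part in the count of rises. GBP5 stood at 59.1, 48.9 and 55.5 TPM in Untreated and at 604, 602 and 674 TPM in D28WO, a log2 fold change of 3.50 ± 0.10 (SE, limma, adjusted p = 1.26e-11). GBP1 rose from 46.4 ± 3.04 TPM to 464 ± 6.001 TPM and GBP4 from 6.87 ± 0.806 TPM to 142 ± 8.67 TPM. GBP2 and GBP3, higher at the start, rose to 344 ± 18.2 TPM and 205 ± 12.6 TPM from 82.1 and 58.7 TPM. GBP6 and GBP7 reached 7.42 ± 0.285 TPM and 2.35 ± 0.698 TPM from means of 0.117 and 0.0423 TPM. None of the 7 passed the threshold against D28, and all 7 were higher than at D14.

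MHC class I genes, which present peptides of the cell interior to cytotoxic T cells, were raised at the heavy chains, the light chain and the peptide transporter. Of 17 tested genes of class I presentation, 11 rose and none fell, with a median log2 fold change of 1.56. B2M, the light chain, stood at 1720, 1721 and 1646 TPM in Untreated and at 5010, 5378 and 5085 TPM in D28WO. All D28WO libraries lay well above the Untreated range, with a log2 fold change of 1.60 ± 0.05 (SE, limma, adjusted p = 8.92e-12). The heavy chains HLA-B, HLA-C and HLA-E rose by 1.84, 1.56 and 1.12 on the log2 scale, to 1629, 875 and 598 TPM. HLA-G rose from 2.98 ± 1.71 TPM to 18.8 ± 2.40 TPM, a level low enough that reads of the more abundant heavy chains could contribute.

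TAP1 and TAP2, which carry peptides into the endoplasmic reticulum, rose together. TAP1 stood at 97.7, 88.5 and 96.1 TPM in Untreated and at 452, 494 and 478 TPM in D28WO, a log2 fold change of 2.32 ± 0.05 (SE, limma, adjusted p = 8.45e-13). TAP2 rose from 49.4 to 215 TPM, the tapasin relative TAPBPL from 17.3 to 73.3 TPM, and NLRC5, the regulator of class I transcription, from 59.2 to 332 TPM. CALR, a chaperone of the loading complex, was lower, at 657 ± 16.9 TPM and 363 ± 17.8 TPM, with a log2 fold change of -0.86 that did not reach the size limit (adjusted p = 2.82e-06). None of the 17 genes passed against D28.

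The immunoproteasome, which replaces catalytic subunits of the proteasome with ones that favor MHC class I peptides, had 3 of its 5 tested genes higher. PSMB9 rose from 69.9 ± 1.84 TPM to 294 ± 12.8 TPM (log2 fold change 2.05), PSMB10 from 102 ± 4.67 TPM to 273 ± 6.30 TPM and the activator subunit PSME2 from 120 ± 4.06 TPM to 319 ± 16.6 TPM. PSMB8 and PSME1 had log2 fold changes of 0.97 and 0.90, just under the limit, with non-overlapping groups and adjusted p values of 1.45e-08 and 1.26e-06 by limma. TAP1 and PSMB9 overlap on chromosome 6 on opposite strands, so that some of their reads could be shared.

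MHC class II genes had the highest list median, 4.91 on the log2 scale. Class II molecules present extracellular peptides to helper T cells and are nearly silent in resting glial cells. Of 16 tested genes 15 rose and none fell. The 15 include HLA-DRA, HLA-DRB1, HLA-DPB1, HLA-DOA and HLA-DQA1, which averaged under 0.5 TPM in Untreated and reached the filter only through D28WO. CIITA stood at 2.65, 1.76 and 1.21 TPM in Untreated and at 109, 101 and 95.9 TPM in D28WO, a log2 fold change of 5.19 ± 0.14 (SE, limma, adjusted p = 3.94e-12). HLA-DRA, the alpha chain that pairs with the DR beta chains, was listed at 0 in all 3 Untreated libraries and stood at 179, 186 and 183 TPM in D28WO. HLA-DRA reached the filter only through D28WO, so its difference from Untreated is given with no fold and no test. CD74, the chaperone that fills the peptide groove during assembly, stood at 1.04, 0.942 and 2.88 TPM in Untreated and at 549, 599 and 610 TPM in D28WO.

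HLA-DPA1 and HLA-DPB1 rose from means of 2.81 and 0.383 TPM to 311 and 135 TPM, and HLA-DRB1 from 0.258 to 138 TPM. HLA-DMA, part of the peptide exchange factor, rose from 22.1 ± 3.01 TPM to 247 ± 16.2 TPM, the lysosomal protease CTSS from 24.0 ± 2.22 TPM to 136 ± 9.40 TPM and the thiol reductase IFI30 from 76.2 ± 3.47 TPM to 212 ± 3.93 TPM. The reads of DR, DP and DQ genes can be split among near-identical copies, and a line carries alleles that differ from the reference genome, so their single levels are uncertain.

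Several class II genes lay below the level of continuous exposure. In D28WO 7 of the 16 genes were lower than in D28, namely HLA-DRB1, HLA-DRB5, HLA-DQA1, HLA-DQB1, HLA-DOA, HLA-DOB and CTSS, and the median log2 fold change against D28 was -0.78 beside -0.07 for all genes. HLA-DQA1 stood at a mean of 0.0558 TPM in Untreated, 34.1 ± 4.18 TPM in D28 and 1.42 ± 0.813 TPM in D28WO. CIITA itself did not pass against D28, with a log2 fold change of -0.36 (limma, adjusted p = 0.0739), and CD74 was at 589 ± 37.3 TPM in D28 and 586 ± 32.4 TPM in D28WO.

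The chemokines were the group that lay farthest below the level of continuous exposure, yet most were above Untreated. Of 11 tested genes 6 rose and 1 fell, with a median log2 fold change of 1.63. CXCL9, CXCL10 and CXCL11 attract T cells through the receptor CXCR3 and lie side by side on chromosome 4. CXCL10, from 76021118 to 76023497, stood at 0, 0 and 0.608 TPM in Untreated and at 80.5, 101 and 86.3 TPM in D28WO, a log2 fold change of 6.26. CXCL9 stood at 0.0829, 0 and 0 TPM in Untreated and at 14.2, 18.2 and 15.9 TPM in D28WO, a log2 fold change of 4.05. CXCL9, CXCL10 and CCL5 averaged under 0.5 TPM in Untreated and reached the filter only through D28WO. No test against Untreated is therefore given for these genes. CXCL11 reached 31.5 ± 4.09 TPM from 0.503 ± 0.511 TPM.

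The D28 means of CXCL9, CXCL10 and CXCL11 were 187, 504 and 448 TPM. Against D28 their log2 fold changes were -3.46, -2.49 and -3.79, and 8 of the 11 chemokine genes were lower, with a median of -2.17. CCL5, which attracts T cells and monocytes, stood at 0.459 ± 0.284 TPM in Untreated, 4.17 ± 0.744 TPM in D28WO and 23.2 ± 2.76 TPM in D28. CXCL12, the ligand of CXCR4, rose from 1.49 ± 1.15 TPM to 6.47 ± 0.380 TPM and did not pass against D28. CX3CL1 and CXCL16, which are anchored in the membrane, had log2 fold changes of 0.61 and 0.32 that did not pass.

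CCL2, the main monocyte attractant, was below the Untreated level. It stood at 23.7, 17.8 and 21.4 TPM in Untreated and at 11.9, 9.17 and 7.97 TPM in D28WO, and the groups did not overlap. CCL2 fell by 1.05 on the log2 scale (SE 0.18, limma, adjusted p = 4.99e-04). The call was lost without Untreated replicate 1 (-0.96) and without D28WO replicate 3 (-0.93), since both lie under the size limit. In D28 the mean was 73.1 ± 4.38 TPM, higher than in either.

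The feedback inhibitor SOCS1 was higher in D28WO than in any other U251 group by its mean. SOCS1 stood at 2.79, 2.84 and 2.84 TPM in Untreated and at 63.8, 67.7 and 65.8 TPM in D28WO, with means of 35.8, 9.18 and 45.8 TPM at D3, D14 and D28. The log2 fold change against Untreated was 4.13 ± 0.14 (SE, limma, adjusted p = 5.27e-11), and that against D28 was 0.52, under the size limit. Of the 9 tested genes of negative feedback 3 rose and none fell. USP18, which removes ISG15 and damps type I interferon receptors, rose from 24.3 ± 2.76 TPM to 83.2 ± 11.1 TPM and CISH from 3.29 ± 1.12 TPM to 9.20 ± 0.879 TPM. SOCS3, which acts on the IL-6 receptor family, was at 53.1 ± 5.00 TPM and 79.7 ± 0.893 TPM, and the tyrosine phosphatase PTPN2 at 63.3 and 78.9 TPM, and neither passed.

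Several ligands and enzymes known to restrain T cells rose. Of 14 tested checkpoint and tryptophan metabolism genes 6 rose and 1 fell, with a median log2 fold change of 0.78. IDO1, which degrades tryptophan, stood at 8.12, 8.24 and 7.55 TPM in Untreated and at 303, 299 and 304 TPM in D28WO, a log2 fold change of 5.08 ± 0.11 (SE, limma, adjusted p = 4.61e-13). CD274 stood at 24.8, 38.5 and 24.8 TPM in Untreated and at 110, 112 and 106 TPM in D28WO, a log2 fold change of 1.89 ± 0.14. PDCD1LG2 (PD-L2), the second ligand of PD-1, rose from 10.8 ± 0.946 TPM to 41.6 ± 2.35 TPM.

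WARS1, the tryptophanyl-tRNA synthetase, rose from 138 ± 4.29 TPM to 1408 ± 57.3 TPM. LGALS9 (galectin 9) rose from 3.29 ± 1.37 TPM to 48.8 ± 10.3 TPM and the death ligand TNFSF10 (TRAIL) from 47.2 ± 5.83 TPM to 142 ± 6.20 TPM. VTCN1 (B7-H4), also an inhibitory ligand of T cells, fell by 1.46 on the log2 scale, from 4.39 ± 0.962 TPM to 1.03 ± 0.798 TPM (limma, adjusted p = 5.36e-03). Against D28, LGALS9 was among the 4 lower genes of the list, at 98.1 ± 10.999 TPM in D28, while IDO1 and CD274 did not pass, with log2 fold changes of -0.41 and -0.46.

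Most antiviral interferon-stimulated genes rose. Of 50 tested genes 44 rose and none fell, with a median log2 fold change of 2.24, and 49 had non-overlapping groups with D28WO above. IFI27 stood at 2.42, 5.55 and 0.678 TPM in Untreated and at 229, 283 and 325 TPM in D28WO, a log2 fold change of 6.37 ± 0.33 (SE, limma, adjusted p = 5.60e-09). RSAD2 rose from 0.634 ± 0.434 TPM to 79.3 ± 8.89 TPM and CMPK2 from 0.107 ± 0.186 TPM to 82.5 ± 11.7 TPM. The 44 include CMPK2, which reached the filter only through D28WO. OASL and OAS2, relatives of the sensors of double-stranded RNA, rose from 1.96 to 126 TPM and from 2.40 to 143 TPM. XAF1, an antagonist of apoptosis inhibitors, rose from 11.999 ± 4.88 TPM to 391.8 ± 29.6 TPM.

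The most abundant members were the ubiquitin-like protein ISG15, at 56.5 ± 4.38 TPM and 478 ± 49.9 TPM, and the membrane proteins IFITM1 and IFITM3. IFITM1 rose from 49.5 ± 15.9 TPM to 497 ± 38.8 TPM and IFITM3 from 288 ± 7.88 TPM to 598 ± 60.6 TPM, and reads of this close family can be shared. The call of IFITM3 (log2 fold change 1.05) was lost without D28WO replicate 3 (0.97). The GTPase MX1 rose from 26.6 ± 4.23 TPM to 334 ± 37.2 TPM and the RNA-binding protein IFIT1 from 17.2 ± 0.168 TPM to 82.9 ± 6.92 TPM. RSAD2 was the only one of the 50 that passed against D28, at 212 ± 8.04 TPM in D28 with a log2 fold change of -1.42, and the list's median against D28 was 0.11.

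Complement genes can be made by glia and tumor cells. Of 14 tested genes 9 rose, none fell and 5 did not pass, with a median log2 fold change of 1.49. C3, the central component, stood at 7.72, 7.90 and 6.62 TPM in Untreated and at 167, 172 and 222 TPM in D28WO, a log2 fold change of 4.47 ± 0.13 (SE, limma, adjusted p = 1.31e-11). SERPING1, the inhibitor of C1, rose from 3.83 ± 2.75 TPM to 193 ± 18.0 TPM, C2 from 2.09 ± 1.18 TPM to 44.9 ± 6.90 TPM and the proteases C1R and C1S to 214 and 204 TPM from 65.0 and 59.1 TPM. C4A and C4B, near-identical copies whose reads cannot be split with certainty, rose to 96.6 and 69.5 TPM. CFB, of the alternative pathway, rose from 89.0 ± 5.72 TPM to 198 ± 10.9 TPM. CD59, which shields cells from complement, was at 380 ± 13.8 TPM and 221 ± 12.8 TPM, a log2 fold change of -0.78 that did not reach the size limit. C3 was lower than in D28 (411 ± 45.003 TPM), with a log2 fold change of -1.14.

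Genes that respond to NF-kB or encode cytokines lay on both sides of the Untreated level. Of 24 tested genes 4 rose and 1 fell, and 13 log2 fold changes were positive and 11 negative, with a median of 0.18. With the adjusted p alone and no size limit, 10 were higher and 4 lower, where 15.6% of all tested genes were higher and 14.8% lower by that rule. ICAM1, an adhesion receptor for leukocytes, stood at 7.08, 7.77 and 5.36 TPM in Untreated and at 120, 116 and 104 TPM in D28WO, a log2 fold change of 3.90 ± 0.12 (SE, limma, adjusted p = 1.73e-11). IL15, a growth factor of natural killer cells, rose from 5.18 ± 1.64 TPM to 28.0 ± 3.85 TPM, VCAM1 from 57.6 ± 1.33 TPM to 131 ± 2.95 TPM and TNFAIP3, a brake on NF-kB, from 11.5 ± 1.76 TPM to 25.7 ± 0.517 TPM. LIF fell from 24.8 ± 4.51 TPM to 7.89 ± 0.865 TPM. SOD2 and CSF1, the most abundant members, had log2 fold changes of 0.57 and 0.35 that did not pass. The call of TNFAIP3 (1.10) was lost without Untreated replicate 3 (0.98), and without that library 3 members of the list fell in place of 1, and 2 without D28WO replicate 3.

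Of 18 tested cell death genes 2 rose and none fell. CASP1, the inflammasome caspase, rose from 34.1 ± 2.53 TPM to 90.3 ± 5.06 TPM and MLKL, the effector of necroptosis, from 14.4 ± 2.04 TPM to 46.2 ± 6.83 TPM. CASP4, which senses bacterial lipopolysaccharide, was at 104 ± 5.34 TPM and 149 ± 2.28 TPM and did not pass.

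**Figure D3:**
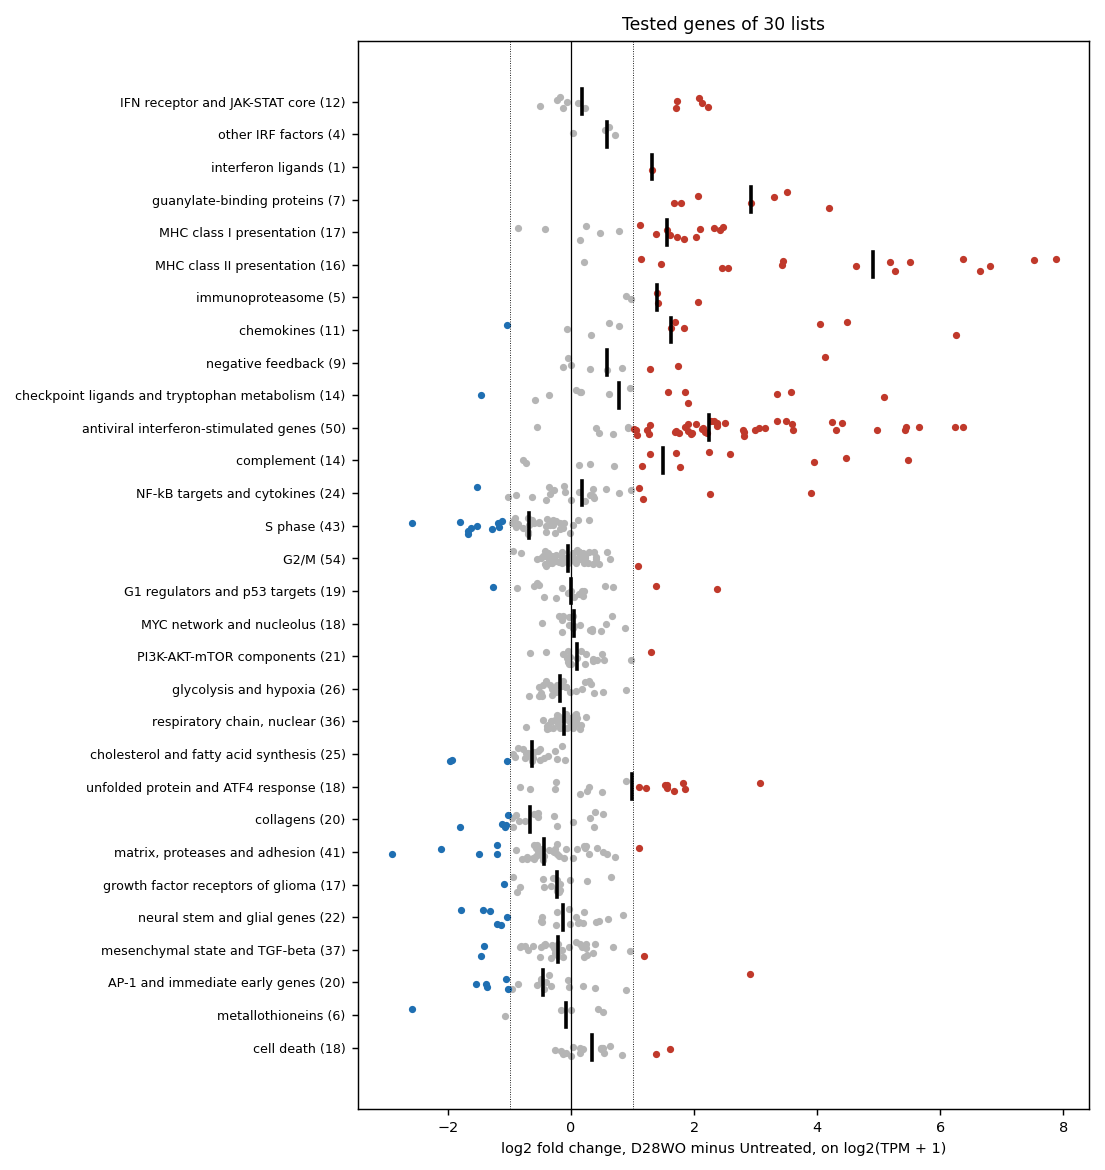
Log2 fold change D28WO minus Untreated, on log2(TPM + 1), of each tested gene (point) of the 30 lists, with the number tested in brackets. Red and blue points passed the threshold as higher and lower, grey points did not, black bars are list medians and dotted lines mark -1 and 1. The class II, guanylate-binding and antiviral lists lie furthest to the right, and the S phase, cholesterol and collagen lists have medians under -0.6.

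The promoter sequences of raised genes are shown because the pathway acts through short elements there. RefSeq promoter windows of GRCh38.p14 were matched by symbol for 526 of the 972 genes that rose, 486 of the 816 that fell and 12940 of the 21933 tested. The 250 bases before the annotated start were searched on both strands for GAS (TTCNNNGAA), ISRE (GAAANNGAAA, the element of IRF factors and ISGF3) and an NF-kB element (GGGANNTTCC). A gene was counted where any of its windows held the letters. GAS letters were found for 12.4% of matched genes that rose, 8.02% of those that fell and 7.66% of those tested, and for 8.09% of all 27305 genes with a window. For ISRE the shares were 12.7%, 2.67%, 3.45% and 3.71%, and for the NF-kB element 3.23%, 1.85%, 1.91% and 1.73%. Either GAS or ISRE was in 22.4% of the genes that rose, 10.1% of those that fell, 10.6% of those tested and 11.3% of all genes with a window. At the IFI27 start the GAS letters overlap both ISRE matches. Windows follow, 5′ to 3′ on the strand of the gene with the matched letters in capitals, for 6 named genes with large rises that held an element.
IFI27, chr14:94110486-94110735, plus strand: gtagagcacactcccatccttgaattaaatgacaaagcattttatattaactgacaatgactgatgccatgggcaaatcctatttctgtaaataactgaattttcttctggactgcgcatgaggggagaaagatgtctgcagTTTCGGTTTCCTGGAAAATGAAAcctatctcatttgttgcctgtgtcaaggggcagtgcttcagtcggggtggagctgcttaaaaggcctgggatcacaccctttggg
CXCL10, chr4:76023498-76023747, minus strand: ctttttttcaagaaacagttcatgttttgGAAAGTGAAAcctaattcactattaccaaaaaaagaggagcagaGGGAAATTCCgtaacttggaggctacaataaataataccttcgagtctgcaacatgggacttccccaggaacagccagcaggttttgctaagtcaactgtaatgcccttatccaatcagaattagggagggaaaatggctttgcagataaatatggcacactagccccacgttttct
RSAD2, chr2:6877527-6877776, plus strand: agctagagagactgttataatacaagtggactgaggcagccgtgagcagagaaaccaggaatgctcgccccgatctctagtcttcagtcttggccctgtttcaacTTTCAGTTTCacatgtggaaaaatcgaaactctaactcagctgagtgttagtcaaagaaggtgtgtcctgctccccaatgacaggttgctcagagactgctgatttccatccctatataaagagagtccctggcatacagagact
CXCL11, chr4:76036071-76036320, minus strand: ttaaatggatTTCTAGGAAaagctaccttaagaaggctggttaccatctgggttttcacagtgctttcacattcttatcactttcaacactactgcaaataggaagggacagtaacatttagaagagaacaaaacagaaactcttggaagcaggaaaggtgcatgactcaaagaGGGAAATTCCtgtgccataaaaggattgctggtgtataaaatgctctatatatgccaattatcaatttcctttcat
GBP4, chr1:89198943-89199192, minus strand: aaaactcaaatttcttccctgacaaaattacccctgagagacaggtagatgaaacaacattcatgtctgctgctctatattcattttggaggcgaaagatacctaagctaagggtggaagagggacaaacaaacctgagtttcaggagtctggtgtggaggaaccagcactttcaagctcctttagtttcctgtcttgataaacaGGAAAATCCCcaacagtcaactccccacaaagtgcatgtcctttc
SOCS1, chr16:11256205-11256454, minus strand: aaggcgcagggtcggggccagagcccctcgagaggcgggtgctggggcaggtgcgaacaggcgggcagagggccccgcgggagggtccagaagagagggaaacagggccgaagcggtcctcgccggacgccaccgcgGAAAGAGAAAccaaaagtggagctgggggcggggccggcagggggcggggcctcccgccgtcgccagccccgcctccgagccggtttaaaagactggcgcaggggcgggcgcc

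IFI27 held 1 GAS match that starts 101 bases before the start site and ISRE matches at 108 and 95 bases. CXCL10 held an ISRE match at 221 bases and an NF-kB match at 177 bases, and CXCL11 a GAS match at 240 bases and an NF-kB match at 76 bases. RSAD2 and SOCS1 held an ISRE match each, at 145 and 113 bases, and GBP4 an NF-kB match at 45 bases. These are matches of letters, and binding of a factor was not measured.

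Of 18 tested genes of the unfolded protein and ATF4 response 9 rose and none fell, with a median log2 fold change of 1.00. CHAC1, which degrades glutathione, stood at 22.6, 21.1 and 17.2 TPM in Untreated and at 181, 176 and 173 TPM in D28WO, a log2 fold change of 3.07 ± 0.12 (SE, limma, adjusted p = 1.93e-10). ASNS (asparagine synthetase) rose from 100.1 ± 11.1 TPM to 352 ± 18.7 TPM, and the serine synthesis enzymes PSAT1 and PHGDH from 58.0 to 211 TPM and from 216 to 465 TPM. The amino acid importer SLC7A5 rose from 61.8 ± 4.43 TPM to 184 ± 6.45 TPM, the pseudokinase TRIB3 from 46.9 ± 6.42 TPM to 150.1 ± 4.99 TPM and DDIT3 (CHOP) from 51.3 ± 3.31 TPM to 152 ± 10.03 TPM. HSP90B1, an endoplasmic reticulum chaperone, was at 658 ± 46.7 TPM and 416 ± 23.3 TPM, a log2 fold change of -0.66 that did not reach the size limit. None of the 18 passed against D28.

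SESN2, a stress sensor that binds leucine and is also a p53 target, rose from 14.7 ± 2.73 TPM to 79.1 ± 2.08 TPM (log2 fold change 2.37). EIF4EBP1, the translation repressor controlled by mTOR, was the only 1 of 21 tested PI3K-AKT-mTOR components that passed, from 78.9 ± 3.41 TPM to 197 ± 6.46 TPM. DDIT4, an inhibitor of mTOR, was at 132 ± 9.23 TPM and 259 ± 2.35 TPM, a log2 fold change of 0.97 just under the limit, and passed without Untreated replicate 3 (1.03). The list median was 0.10.

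Sterol and fatty acid genes lay below the Untreated level, most of them by less than the size limit. Of 25 tested genes 3 fell and none rose, 24 had D28WO libraries below all Untreated libraries, and the median log2 fold change was -0.63. FADS2, a fatty acid desaturase, fell from 122 ± 6.39 TPM to 31.0 ± 0.665 TPM and INSIG1, a sterol sensor, from 171 ± 3.15 TPM to 82.3 ± 3.33 TPM. SCD, an abundant enzyme of the list, had a log2 fold change of -0.60. Neither FADS2 nor INSIG1 passed against D28.

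Replication genes were among those that fell after washout. Of 43 tested S phase genes 10 fell and none rose, with a median log2 fold change of -0.69, and of 54 tested G2/M genes 1 rose and none fell, with a median of -0.04. CCNE2 (cyclin E2), which drives entry into S phase, stood at 49.8, 56.9 and 44.8 TPM in Untreated and at 5.57, 10.4 and 7.26 TPM in D28WO. The groups were well apart, and CCNE2 fell by 2.59 on the log2 scale (SE 0.22, limma, adjusted p = 1.04e-06). RRM2, which makes deoxynucleotides, stood at 167, 170.1 and 185 TPM in Untreated and at 48.1, 53.6 and 44.9 TPM in D28WO. CDC45 and GINS2, parts of the replicative helicase, fell from 44.8 to 13.4 TPM and from 53.3 to 16.9 TPM, and the chromatin factors UHRF1 and HELLS from 47.4 to 14.2 TPM and from 28.7 to 9.35 TPM.

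The more abundant S phase genes TYMS and MCM4 had log2 fold changes of -0.70 and -0.78, with non-overlapping groups but under the size limit. Some S phase genes were also lower than under continuous exposure. Against D28, 11 of the 43 were lower and the list median was -0.66, and against D14, 21 were lower and the median was -0.96. Of the 54 G2/M genes 1 was lower than in D28, with a median of -0.25, and 11 were lower than at D14, with a median of -0.58. The D28 means of CCNE2 and RRM2 were 37.6 ± 10.4997 TPM and 192 ± 19.7 TPM. The 1 raised G2/M gene was PSRC1, a spindle protein, from 88.6 ± 12.1 TPM to 189 ± 13.3 TPM.

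G1 regulators moved singly. Of 19 tested G1 and p53 target genes 2 rose and 1 fell, with a median of 0.00. CCNE1 (cyclin E1) fell from 22.8 ± 1.02 TPM to 8.88 ± 1.07 TPM (log2 fold change -1.28, limma, adjusted p = 9.70e-07) and CDKN1C (p57), an inhibitor of G1 kinases, stood at 8.31, 9.11 and 8.92 TPM in Untreated and at 28.9, 24.8 and 20.03 TPM in D28WO. CDKN1A (p21), the p53 target that arrests the cycle, was at 40.9 ± 1.21 TPM in Untreated, 73.8 ± 7.36 TPM in D28 and 27.8 ± 3.59 TPM in D28WO. CDKN1A did not reach the size limit against Untreated and was lower than in D28 (log2 fold change -1.38). None of the 18 tested MYC network and nucleolar genes passed, with a median of 0.04, and the nucleolar proteins NPM1 and NCL were at 375 and 337 TPM and at 221 and 199 TPM.

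**Figure D4:**
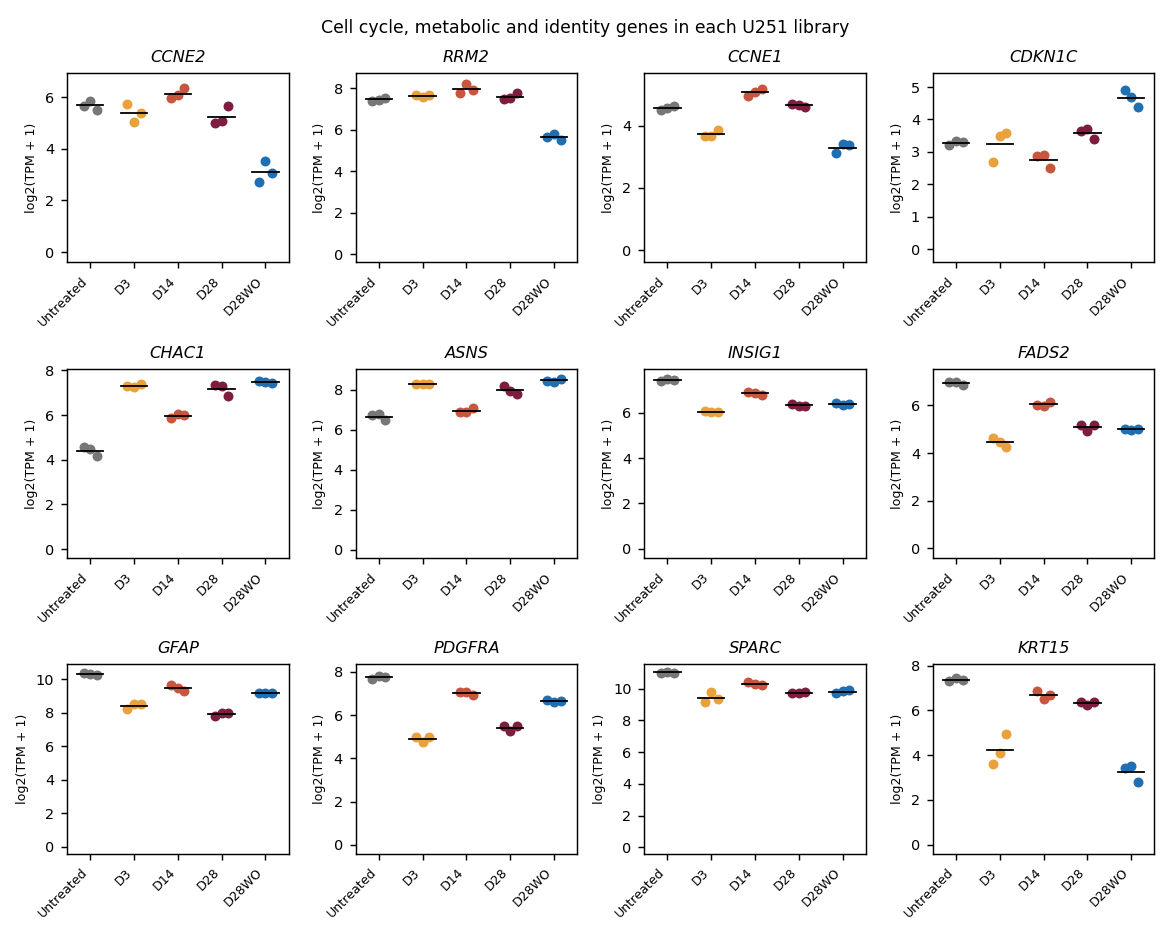
Level of 12 cell cycle, stress, lipid, glial and matrix genes in each of the 15 U251 libraries, as log2(TPM + 1) on the vertical axis, by group on the horizontal axis. Points are libraries and black lines group means of log2(TPM + 1). CCNE2, RRM2, CCNE1 and KRT15 are lowest in D28WO, while GFAP and PDGFRA are lower in D28 than in D28WO.

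Some glial genes fell. Of 22 tested neural stem and glial genes 6 fell, none rose and 16 did not pass, with a median log2 fold change of -0.13. D28WO lay below all Untreated libraries for 10 of the 22 and above them for 6. GFAP, the intermediate filament of astrocytes, stood at 1309, 1246 and 1219 TPM in Untreated and at 574, 574 and 570.2 TPM in D28WO, and fell by 1.13 on the log2 scale (SE 0.09, limma, adjusted p = 4.92e-07). S100B fell from 184 ± 13.02 TPM to 52.3 ± 3.76 TPM, the stem cell filament NES (nestin) from 168 ± 1.72 TPM to 72.3 ± 0.807 TPM and the tubulin TUBB3 from 169 ± 8.42 TPM to 67.3 ± 7.55 TPM. PTPRZ1, a receptor phosphatase of glial progenitors, fell from 177 ± 4.04 TPM to 64.7 ± 1.36 TPM, and the cannabinoid receptor CNR1 from 183 ± 6.60 TPM to 88.6 ± 1.03 TPM. With quantile normalization the log2 fold change of GFAP was -0.88, under the size limit.

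Against D28, 2 of the 22 genes were higher in D28WO and 2 lower. GFAP and CNR1 were lower still in cells under IFN-γ at day 28, at 243 ± 18.2 TPM and 33.3 ± 1.39 TPM, and both were higher in D28WO than in D28 (log2 fold changes 1.23 and 1.38). DLL1 and NFIA were lower in D28WO than in D28 (-1.04 and -1.09), and NES and S100B, both at -0.29, did not pass. PDGFRA, a growth factor receptor of glial progenitors and gliomas, followed the same order. It stood at 201, 221 and 217 TPM in Untreated, at 102, 96.3 and 98.5 TPM in D28WO and at a mean of 42.0 ± 3.70 TPM in D28. PDGFRA fell by 1.10 on the log2 scale against Untreated (SE 0.08, limma, adjusted p = 1.90e-07) and was the only 1 of 17 tested growth factor receptors of glioma that passed, with a list median of -0.24. Without Untreated replicate 2 or without D28WO replicate 1, 2 of these receptors fell.

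Some collagen and matrix genes fell, among them SPARC, the most abundant of the matrix list. Of 20 tested collagen genes 5 fell and none rose (median log2 fold change -0.67), and of 41 tested matrix, protease and adhesion genes 5 fell and 1 rose (median -0.43). SPARC, a collagen-binding glycoprotein, stood at 2070, 2123 and 2081 TPM in Untreated and at 852, 919 and 957 TPM in D28WO, and fell by 1.20 on the log2 scale (SE 0.11, limma, adjusted p = 1.24e-06). The integrin chain ITGB3 fell from 151 ± 5.24 TPM to 34.0 ± 1.68 TPM, the protease MMP7 from 70.8 ± 5.46 TPM to 8.81 ± 2.91 TPM, ADAMTS15 from 47.1 ± 3.25 TPM to 16.0 ± 0.915 TPM and ITGA7 from 209 ± 34.2 TPM to 89.3 ± 7.09 TPM. L1CAM, an adhesion molecule of neurons, was the 1 gene that rose, from 17.1 ± 2.71 TPM to 39.1 ± 13.1 TPM, and its call was lost when any 1 library other than Untreated replicate 3 or D28WO replicate 2 was left out (adjusted p 0.0624 to 0.101).

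The collagens that fell were COL6A3, COL8A1, COL11A1, COL13A1 and COL16A1. COL8A1 fell from 71.8 ± 1.59 TPM to 32.3 ± 1.95 TPM and COL11A1 from 238 ± 9.86 TPM to 117 ± 8.08 TPM. COL6A2 and COL1A2, the more abundant chains, had log2 fold changes of 0.31 and -0.53 that did not pass. Several collagen calls lie near the size limit, and only 2 fell without Untreated replicate 3 and 3 without D28WO replicate 1.

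Of 37 tested mesenchymal and TGF-beta genes 2 fell and 1 rose, with a median of -0.22. CCN2, a target of TGF-beta and YAP, fell from 287 ± 9.60 TPM to 107 ± 1.41 TPM and the transcription factor RUNX2 from 111 ± 15.4 TPM to 39.3 ± 1.91 TPM. CEBPB, a regulator of the mesenchymal state and of inflammation, rose from 79.1 ± 4.04 TPM to 180.2 ± 0.741 TPM. VIM (vimentin) was at 1141 ± 21.0 TPM and 800 ± 22.6 TPM, a log2 fold change of -0.51 that did not reach the size limit.

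Immediate early genes are switched on within minutes of growth factor signals. Of 20 tested AP-1 and immediate early genes 5 fell and 1 rose, with a median of -0.46. EGR2, EGR3 and the nuclear receptor NR4A1 fell from 38.3, 14.5 and 45.7 TPM to 17.7, 4.13 and 16.7 TPM, and the MAP kinase phosphatases DUSP5 and DUSP6 from 46.0 and 40.0 TPM to 17.4 and 19.3 TPM. DUSP6 was at 92.4 ± 6.08 TPM in D28. KLF4, which encodes a factor of stem cells and differentiation, stood at 3.91, 2.80 and 5.88 TPM in Untreated and at 40.2, 46.8 and 26.3 TPM in D28WO, a log2 fold change of 2.90 ± 0.21 (SE, limma, adjusted p = 1.95e-07). FOS and EGR1, the most abundant members, had log2 fold changes of -0.36 and -0.48 and did not pass. DUSP6 (-1.03) and EGR2 (-1.05) lie near the limit, and left-out libraries took their log2 fold changes as far as -0.87 and -0.95.

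Of 6 tested metallothionein genes, which buffer zinc and copper, only MT3, the brain form, passed, from 116 ± 5.75 TPM to 18.9 ± 4.05 TPM. MT2A, the most abundant form, was at 560.3 ± 35.5 TPM and 498 ± 14.98 TPM (limma, adjusted p = 0.485). None of the 26 tested glycolysis and hypoxia genes passed, with a median of -0.19, and the glycolytic enzymes ENO1, PKM and PGK1 had log2 fold changes of -0.31, -0.51 and -0.48. None of the 36 nuclear respiratory chain genes passed either, with a median of -0.11, and the abundant members ATP5PB and COX7A2 had log2 fold changes of -0.19 and -0.36. With the adjusted p alone and no size limit, 5 glycolysis genes were higher and 11 lower, and 2 respiratory chain genes were higher and 14 lower, where 15.6% of all tested genes were higher and 14.8% lower by that rule.

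**Figure D5:**
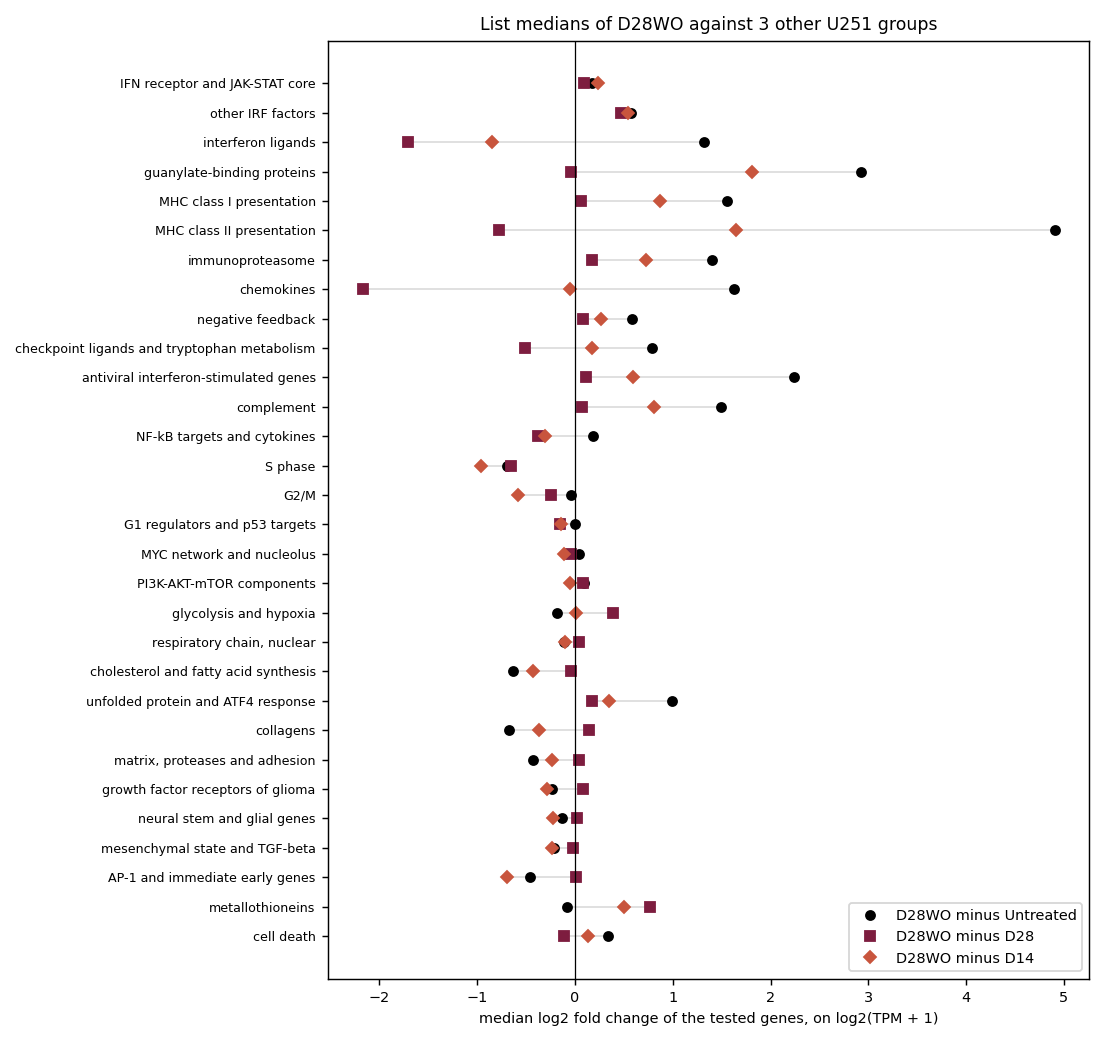
Median log2 fold change of the tested genes of each list, on log2(TPM + 1), for D28WO minus Untreated (black circles), minus D28 (dark red squares) and minus D14 (red diamonds), which share the D28WO libraries. Class II genes and chemokines are above Untreated and below D28, the guanylate-binding and antiviral lists are near 0 against D28, and the S phase list is below 0 in all 3.

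Set side by side, the list medians against the 3 other groups fell into a few patterns, given here as a description. Many list medians moved under median-ratio and quantile scaling, as counted below. The antiviral list had medians of 2.24, 0.11 and 0.59 against Untreated, D28 and D14, the guanylate-binding list 2.92, -0.04 and 1.81, and the class I list 1.56, 0.07 and 0.87. The class II list had 4.91, -0.78 and 1.64 and the chemokine list 1.63, -2.17 and -0.05. The S phase list had -0.69, -0.66 and -0.96, below each of the groups, whereas the cholesterol list had -0.63, -0.04 and -0.43 and the collagen list -0.67, 0.15 and -0.37.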

How the data were processed

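RNA of U251 was sequenced in 15 libraries (TruSeq, paired ends), of which the 6 of D28WO and Untreated carry the comparison. The authors named Trim Galore, STAR, featureCounts and the GRCh38 build in their processing notes and methods. They deposited TPM values in 1 table per line, and how TPM was computed and whether strand was used is not given in the sources used here. Genes averaging 0.5 TPM or more in the libraries compared were tested on log2(TPM + 1) with limma 3.58.1 in R 4.3.3, with all 5 U251 groups and 15 libraries in 1 fit and a trend in the variance. To pass, a gene needed a log2 fold change beyond 1 in either direction and a p-value that stayed below 0.05 after Benjamini-Hochberg adjustment. TPM keeps no depth, so no interval for counting error is given, and p-values measure the spread between these cultures. The members and lists were chosen with earlier results of these data known. Named genes are the 12 largest rises and 12 largest falls among called genes with a symbol, non-overlapping groups and at least 5 TPM in the higher group, all members of short lists, up to 6 called and up to 3 abundant members of longer lists, and 24 genes fixed by name. IFNGR1, IFNGR2, HLA-C, HLA-E, CALR, HLA-DMA, HLA-DRB5, HLA-DQA1, HLA-DQB1, HLA-DOB, CTSS, MX1, IFIT1, VTCN1, CDKN1A, CD14, CSF1R, TYROBP, CDH5, DLL1 and NFIA were named after their values were seen. Coordinates are from GENCODE release 44 and promoters from RefSeq. The procedure was tested on simulated data. Alternatives were a pseudocount of 0.1, other filters, quantile and median-ratio scaling, only the 2 groups, a replicate block, array weights, no trend, the adjusted p alone and leaving out each library. Of the U87 table, 9 columns were not used. Same-numbered libraries of D28WO and Untreated did not deviate together. Values of some genes covered by the naming rule are not reported here.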

Additional observations from a re-analysis of the deposited data

Results flagged for a closer look

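For 10 of the 182 named genes (5.49%) the D28WO and Untreated libraries did not overlap in either glioblastoma line and lay in opposite directions in U251 and U87. Another 130 named genes (71.4%), many of them chosen for their change in U251, were free of overlap in both lines with the same direction. Over all 21933 genes tested in U251, 1316 (6.0%) lay without overlap in opposite directions and 4588 (20.9%) in the same direction, and in U87 35.3% had D28WO above and 16.2% below. The share in opposite directions was thus near that of all tested genes, and nothing is read from it about the named genes. Each value is a difference of mean log2(TPM + 1), D28WO minus Untreated, with 3 libraries per group. The tables of the 2 lines were normalized separately, so the difference between the lines was not tested. The cytokine genes CCL2 and LIF had differences of -1.05 and -1.52 in U251 and of 1.62 and 1.04 in U87. GFAP had -1.13 in U251 and 1.45 in U87. The matrix genes COL11A1 and MMP7 had -1.02 and -2.92 in U251 and 1.85 and 1.04 in U87. CYB5R2 and XKR4 had -3.43 and -3.60 in U251 and 1.77 and 0.045 in U87, where XKR4 was next to 0 in both groups (means of 0.028 and 0.061 TPM) and CYB5R2 was at 0.028 and 2.58 TPM. DUSP5 had -1.36 in U251 and 0.18 in U87, and the kinase JAK1 -0.13 and 0.37. PSRC1 had 1.09 in U251 and -0.67 in U87.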

How the results depend on the processing

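Each alternative was followed gene by gene for the 182 named genes, and none of those called changed sign. Without the size limit, the adjusted p alone gave 3418 genes higher and 3256 lower against Untreated, 2440 and 3832 against D28, and 2529 and 3500 against D14. Quantile normalization gave 528 higher and 865 lower against D28. Leaving out 1 library gave 889 to 1035 higher and 761 to 902 lower against Untreated, 240 to 290 and 1282 to 1396 against D28, and 384 to 503 and 1012 to 1103 against D14. The other alternatives gave 914 to 1248 higher and 777 to 1014 lower against Untreated. With the replicate number as a block, 984 genes were higher and 821 lower, and no call of a named gene changed. Same-numbered libraries deviated with a correlation of -0.016 to 0.013, so the numbers were not taken to pair the samples. Among named genes, quantile normalization ended the calls of COL11A1 (-0.98), GFAP (-0.88) and DUSP6 (-0.99), and array weights those of COL16A1 (-0.90) and DUSP6 (-0.99). Leaving out 1 library ended calls of CCL2, L1CAM, EGR2, RPS26P6, COL11A1, TNFAIP3, COL13A1, COL16A1, DUSP6 and IFITM3, and added those of DDIT4 and PSMB8. Beside the collagen, NF-kB, matrix, chemokine and receptor counts given above, leaving out 1 library moved counts of 0 or 1 member by 1 in the PI3K, neural, mesenchymal, metallothionein and G2/M lists. The list medians near 0 of G1 regulators and of metallothioneins changed sign under some alternatives. Many other list medians changed in size. Over the comparisons with Untreated, D28 and D14, median-ratio scaling left 39 medians labelled as the same and 51 as moved. For quantile normalization the counts were 52 and 38, and for leaving out 1 library they were 425 and 115. The cause of these changes was not tested. TPM keeps no depth, so what depth limits is unknown.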
